A study of Mus musculus with 9 samples.

Results

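The genes described here are 37 genes of the endoplasmic reticulum (ER): its chaperones, the sensors and factors of the unfolded protein response, and the machinery that folds, checks and exports collagen. They were taken by symbol from a table of gene counts. All 37 were found, 1 row each among 56748 genes, and all 37 were among the 15502 genes with enough counts to be tested. The counts come from RNA sequencing of chondrocytes, the cells of cartilage, which were freed with collagenase D from knee cartilage of wild-type (WT) mice and grown in DMEM with serum. There were 3 libraries of cells given interleukin-1β (IL-1β) and recombinant SFRP5, 3 of cells given IL-1β alone and 3 of untreated control cells. IL-1β is an inflammatory cytokine, and SFRP5 (secreted frizzled-related protein 5) is a secreted protein that binds Wnt ligands. Doses, treatment times, the age and sex of the mice and the number of mice or cultures behind a library are not given in the labels, and no group had SFRP5 without IL-1β. Whether the libraries of a group are separate cultures is not stated, so a p-value here speaks of library-to-library spread that could be technical.

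Secreted and membrane proteins enter the ER through the translocon, are folded there by chaperones and disulfide isomerases, and leave in vesicles coated with the COPII proteins. When unfolded protein builds up, the sensors IRE1, PERK and ATF6 in the ER membrane switch on the unfolded protein response, which slows translation and raises chaperones and the degradation of misfolded protein. Chondrocytes secrete large amounts of collagen, a long and rigid cargo that needs its own chaperones and enlarged carriers. In mouse cartilage the membrane-bound factor BBF2H7, encoded by Creb3l2, is known to switch on the COPII gene Sec23a so that collagen can leave the ER.

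The promoters of 32 of the 37 genes (all but Atf6, Creb3l1, Fkbp10, Hyou1 and Manf) were found by symbol in RefSeq sequences of the mouse assembly GRCm38.p6, as windows of 250 bases before to 50 bases after a start site. Each window was searched on both strands for the ER stress element ERSE (CCAAT, any 9 bases, CCACG), through which ATF6 acts, for its variant ERSE-II (ATTGG, any 1 base, CCACG) and for the element UPRE (TGACGTGG), which XBP1 and ATF6 can bind. The related element CRE (TGACGTCA) was in none of the 32 genes, against 2.03% of the genes in the promoter table. ERSE, ERSE-II and UPRE all hold CCACG on 1 strand and could overlap, but none of the 32 genes searched had matches to more than 1 of them. The 37 genes were chosen in part as genes of the unfolded protein response. A high share of that response's elements can come from this choice and is not a test. ERSE was found in 8 of the 32 genes, or 25%, against 37 of 27025 genes in the promoter table, or 0.137%. These stretches are shown because they are the sequence feature that some of the genes share and because the genes that carry it went in both directions below. Each is printed on the strand that reads as ERSE, with 10 bases on either side and the fixed letters of the motif in capitals.
Hspa5: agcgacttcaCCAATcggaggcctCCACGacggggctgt
Hsp90b1 near: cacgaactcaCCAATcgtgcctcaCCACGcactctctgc
Hsp90b1 far: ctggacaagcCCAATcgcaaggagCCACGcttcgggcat
Canx: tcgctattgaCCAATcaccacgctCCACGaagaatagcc
Calr: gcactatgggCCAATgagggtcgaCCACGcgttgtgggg
Pdia6: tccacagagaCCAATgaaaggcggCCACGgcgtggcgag
Creld2: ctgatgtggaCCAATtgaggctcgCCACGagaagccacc
Dnajc3: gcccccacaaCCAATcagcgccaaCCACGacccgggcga
Syvn1: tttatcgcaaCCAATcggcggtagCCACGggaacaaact

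The Hspa5 stretch is at chr2:34772015-34772053 on the plus strand, and its motif lay 65 to 47 bases before the start. The near Hsp90b1 stretch is at chr10:86705523-86705561 (plus strand) and the far one at chr10:86705628-86705666 (minus strand), with motifs 107 to 89 and 212 to 194 bases before the start. Those of Canx, chr11:50325790-50325828 (minus strand), and Calr, chr8:84847065-84847103 (plus strand), had the motif 145 to 127 and 162 to 144 bases before the start. The other stretches are at chr12:17266481-17266519 (plus strand) for Pdia6, chr15:88819510-88819548 (minus strand) for Creld2, chr14:118937817-118937855 (plus strand) for Dnajc3 and chr19:6046522-6046560 (plus strand) for Syvn1. In all 9 the motif lay before the start site.

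ERSE-II was found in 2 of the 32 genes, Herpud1 and Dnajb11, against 0.0444% of the genes in the promoter table, and UPRE in 3, against 0.714%. The UPRE genes Sec23a, Sec24d and Kdelr3 are all parts of the export and retrieval machinery, so their stretches are shown with that of Herpud1, again with the motif in capitals.
Herpud1: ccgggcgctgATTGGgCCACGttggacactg
Sec24d: cccgggcgccTGACGTGGcactagcaac
Kdelr3: ggccgcgcggTGACGTGGcggggcggcc
Sec23a: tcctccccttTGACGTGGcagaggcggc

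They are at chr8:94386367-94386397 (plus strand), chr3:123267460-123267487 (plus strand), chr15:79516368-79516395 (minus strand) and chr12:59011994-59012021 (minus strand). The motif lay 52 to 42 bases before the start in Herpud1, 26 to 19 before it in Sec24d and 30 to 23 before it in Kdelr3, but just past the start in Sec23a, as did the ERSE-II of Dnajb11. A match is a run of letters and says nothing of whether a factor was bound in these cells.

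Libraries held 15795985 to 20688963 counts, and the levels of libraries of 1 group correlated across genes with r of 0.989 to 0.992. The culture carried the markers of chondrocytes. All 11 listed markers were tested, and their summed level was 29220 ± 740 CPM (the usual unit of counts scaled to library size) with IL-1β and SFRP5, 23250 ± 590 CPM with IL-1β and 111400 ± 1300 CPM in control (mean ± SD, n = 3 each). All 11 fell with IL-1β, and fewer cells of a type and less RNA per cell cannot be told apart in bulk samples. Antibody-secreting cells, which are rich in ER, left almost no trace: Igkc and Mzb1 had 0 counts in every library, and the 6 markers of plasma and B cells summed to 0.133, 0.181 and 1.23 CPM. The 10 macrophage markers summed to 40.3 ± 2.77, 57.2 ± 2 and 17.7 ± 0.949 CPM in the same order of groups, and with IL-1β 4 of the 6 that were tested rose and 1 fell. Synovial fibroblast markers (5 genes) summed to 1086 ± 19, 869.2 ± 27.4 and 123.7 ± 2.93 CPM. Prg4 and Pdpn made up nearly all of it in both stimulated groups, whereas in control Thy1 held 18.54 CPM of it. With IL-1β Prg4 and Pdpn rose, Thy1 fell (−2.28) and Cd55 and Htra4 were not called. All 5 osteoblast markers that were tested, of 6, fell with IL-1β, from Col1a1 at −1.49 to Sp7 at −6.53 ± 0.33 (only 0.1175 CPM with IL-1β). Col1a1, at 2376 ± 98.1, 1892 ± 54.6 and 5311 ± 94.3 CPM, made up nearly all of their summed 2380 ± 97.2, 1896 ± 55.4 and 5379 ± 93 CPM and is not restricted to osteoblasts. Neutrophil markers (6 genes) reached 5.89, 6.68 and 0.0674 CPM and endothelial markers (5 genes) 2.82, 3.78 and 0.441 CPM, with S100a9, Ly6g and Emcn at 0. The 2 tested neutrophil markers, S100a8 and Camp, and the 2 tested endothelial markers, Cdh5 and Tek, were all called higher with IL-1β. Their means were at most 0.2945 CPM in control and at most 5.197 CPM with IL-1β. The part of these cells in the results was not tested.

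With IL-1β the collagen chaperone and prolyl isomerase genes Serpinh1, Fkbp14 and Fkbp10, the factor genes Creb3l2 and Creb3l1 and the COPII gene Sec23a were 2.37- to 5.82-fold lower than in control, and Eif2ak3, the gene of the sensor PERK, was 4.08-fold lower. The chaperone and co-chaperone genes Hsp90b1, Canx, Hspa5 and Dnajb9, the disulfide isomerase gene P4hb and the sensor gene Atf6 were the genes that rose, by 0.47 to 1.04 on the log2 scale. In all, 24 of the 37 genes fell and 6 rose at an adjusted p under 0.05 in edgeR's quasi-likelihood test, which is 64.9% and 16.2% of them. Of all genes tested 40.4% fell and 38.5% rose, 78.9% in either direction, so a call in itself was common. The 37 genes and the lists below were chosen with earlier results of these data known. Shares set against all genes therefore describe the lists and are not a test. The libraries with IL-1β lay wholly below control for 26 of the 37 genes and wholly above it for 6, against 41.1% and 38.8% of all genes, or 80% together. Their median log2 change was −0.59, against −0.03 over all genes tested. At least 2-fold changes were seen in 11 genes that fell and in 1 that rose, against 21.2% and 18.4% of all genes. Upper-quartile factors, which shift the median of all genes by −0.15, gave 28 genes lower and 6 higher.

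**Figure D1:**
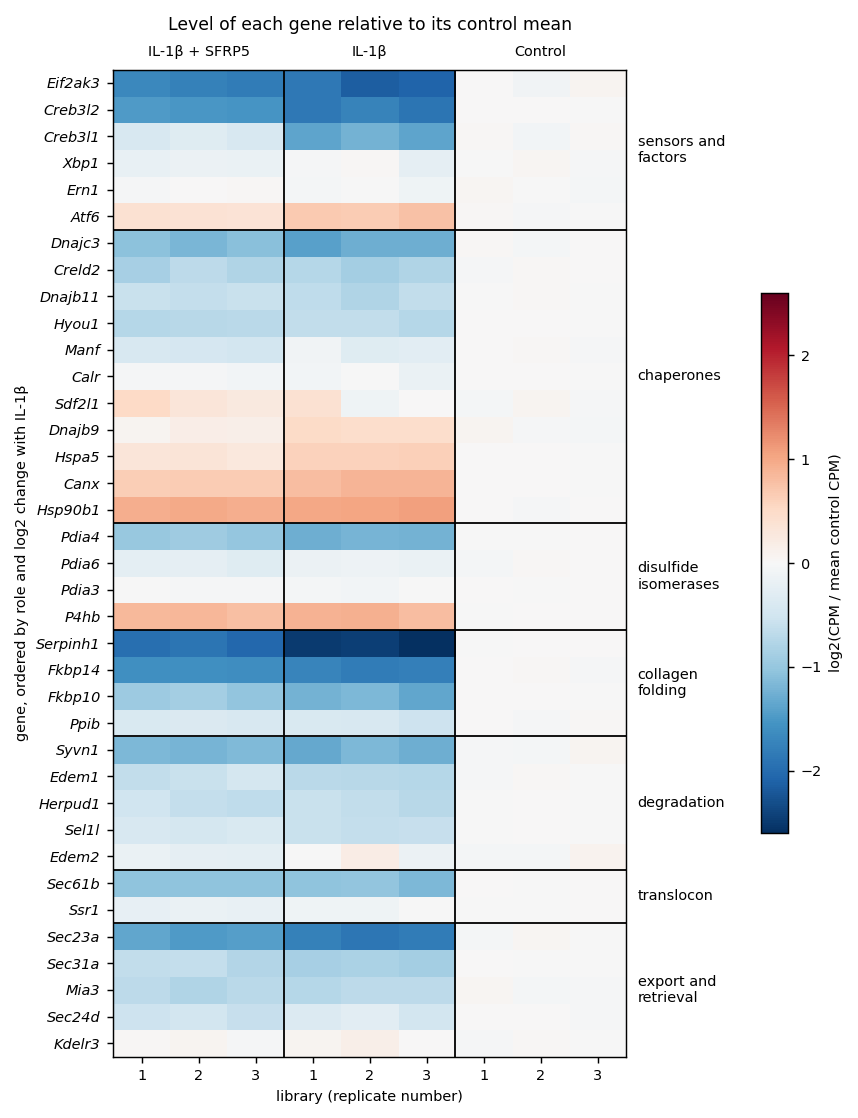
Level of each of the 37 genes (rows, grouped by role) in each of the 9 libraries (columns), as the log2 ratio of its CPM to the mean of the 3 control libraries, on a colour scale from blue (lower) to red (higher). The strongest blue is Serpinh1 with IL-1β, and the rows that are red in all 3 libraries with IL-1β and clearly above control are Atf6, Dnajb9, Hspa5, Canx, Hsp90b1 and P4hb.

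Adding SFRP5 to IL-1β moved many of the 37 genes by small amounts. Against IL-1β alone 12 rose and 10 fell, or 32.4% and 27% of them, against 15.6% and 15.7% of all genes tested, or 31.3% together. The groups did not overlap for 13 genes that were higher and 10 that were lower, against 20.5% and 20.3% of all genes, or 40.8% together. None of the changes reached 2-fold, which 2.21% of all genes did upwards and 1.91% downwards, and they ran from −0.34 for Dnajb9 to 0.93 for Creb3l1 on the log2 scale, with a median of 0.04 against 0.01 for all genes. The number that fell depended on single libraries: it was 6 without IL-1β library 2, and 7 of the 37 genes lost their call in at least 1 of 15 alternative analyses. Against control, cells with IL-1β and SFRP5 had 26 genes lower and 7 higher, or 70.3% and 18.9%, against 39% and 37.3% of all genes, or 76.3% together, and the median was −0.45 against −0.02. At least 2-fold changes were seen in 8 genes that were lower and in 0 that were higher, against 19% and 17.2% of all genes. The groups did not overlap for 28 genes that were lower and 6 that were higher, against 40% and 38.2% of all genes, or 78.2% together. Each pair of these comparisons shares the libraries of 1 group, so their values are set side by side only.

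**Figure D2:**
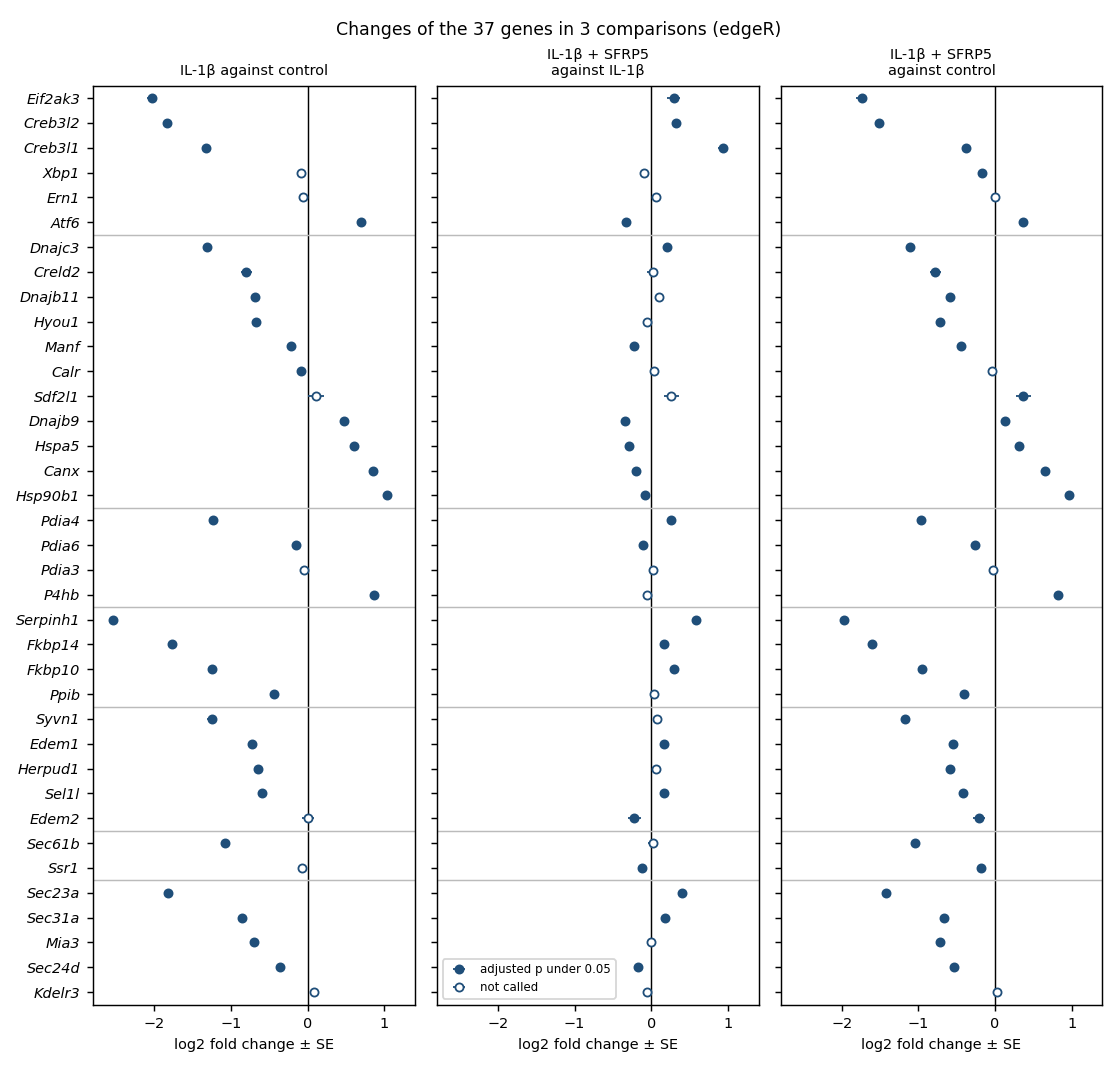
Log2 fold change (x axis) ± SE of each of the 37 genes (rows, in the order of roles) in 3 comparisons (panels), from edgeR. Filled points passed an adjusted p of 0.05 and open points did not. The left and right panels run to −2.54 and −1.97 for Serpinh1, and the middle panel stays between −0.34 and 0.93.

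Among the sensors and the transcription factors of the response, 3 of 6 (50%) fell with IL-1β, 1 (16.7%) rose and 2 were not called, against 40.4% lower and 38.5% higher among all genes tested. Eif2ak3 (ENSMUSG00000031668) encodes PERK, the kinase that slows translation by phosphorylating eIF2α. It was at 25.2, 23.68 and 22.89 CPM with IL-1β and SFRP5, at 21.99, 18.17 and 18.84 CPM with IL-1β, and at 81.28, 75.49 and 83.99 CPM in control. No stimulated library came near the control range, and the libraries with SFRP5 all lay above those with IL-1β alone. Its log2 change was −2.03 ± 0.07 (SE) for IL-1β against control (adjusted p = 2.47e-19) and 0.29 ± 0.08 for SFRP5 added to IL-1β (adjusted p = 0.00583).

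Creb3l1 and Creb3l2 encode OASIS and BBF2H7, a pair of related factors that are held in the ER membrane, cut free when the ER is stressed, and known for secretion of matrix in bone (OASIS) and cartilage (BBF2H7). Creb3l2 (ENSMUSG00000038648) was at 102.1, 99.07 and 98.71 CPM with IL-1β and SFRP5, at 78.5, 85.14 and 76.17 CPM with IL-1β, and at 286.2, 285.3 and 281 CPM in control. Creb3l1 (ENSMUSG00000027230) was at 57.54, 62.06 and 57.77 CPM with IL-1β and SFRP5, at 29.89, 32.94 and 29.89 CPM with IL-1β, and at 78.7, 73.5 and 78.76 CPM in control. Both were lowest with IL-1β alone and highest in control, with no overlap between any groups, but they differed in how close the libraries with SFRP5 came to control. Against control the log2 change with IL-1β was −1.83 ± 0.05 for Creb3l2 (adjusted p = 3.28e-22) and −1.32 ± 0.06 for Creb3l1 (adjusted p = 3.85e-17). With SFRP5 added, Creb3l1 was 1.91-fold higher than with IL-1β alone (log2 change 0.93 ± 0.06, adjusted p = 1.98e-12) and Creb3l2 was 1.25-fold higher (0.32 ± 0.05, adjusted p = 5.69e-06). Set against control, cells with IL-1β and SFRP5 were still lower, by −0.38 ± 0.05 for Creb3l1 and −1.51 ± 0.04 for Creb3l2 on the log2 scale.

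The other sensors went another way. Atf6 (ENSMUSG00000026663), whose product moves to the Golgi under stress and is cut there to give a transcription factor, was at 163.3, 162.5 and 159 CPM with IL-1β and SFRP5. It was at 199.5, 198.5 and 211.7 CPM with IL-1β and at 127.2, 122.4 and 124.6 CPM in control. The groups did not overlap, with a log2 change of 0.70 ± 0.04 for IL-1β against control (adjusted p = 4.57e-14) and −0.33 ± 0.04 for SFRP5 added to IL-1β (adjusted p = 6.61e-07). Ern1, the gene of IRE1, which splices the Xbp1 messenger, was at 132.7, 136.1 and 139 CPM with IL-1β and SFRP5, at 131.4, 134 and 126 CPM with IL-1β, and at 140.2, 135.3 and 131.8 CPM in control. Its groups overlapped, and the log2 difference between IL-1β and control was −0.06 ± 0.04 (adjusted p = 0.232).

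Xbp1 itself, the target of that splicing, was at 111, 113.8 and 113.2 CPM with IL-1β and SFRP5, at 124.1, 128.8 and 107.9 CPM with IL-1β, and at 125.6, 130.4 and 124.2 CPM in control. IL-1β library 3 lay below the other libraries with IL-1β, and the difference from control was −0.08 ± 0.05 (adjusted p = 0.184). With IL-1β and SFRP5 it was lower than in control (−0.17 ± 0.05, adjusted p = 0.00514). Counts per gene do not separate spliced from unspliced Xbp1 or cut from whole ATF6, so they measure the messengers of the sensors and not their activity. With upper-quartile factors, which shift all genes as given above, Xbp1 and Ern1 were called lower with IL-1β, at −0.22 and −0.21.

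**Figure D3:**
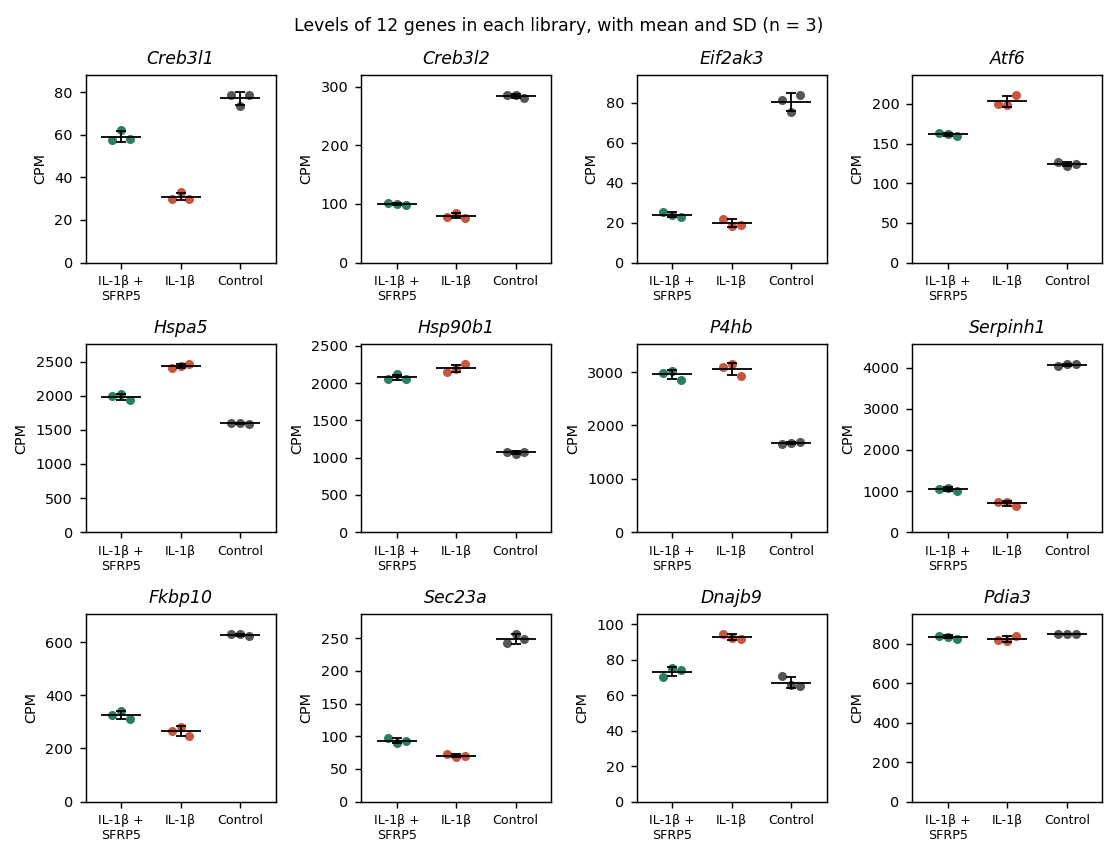
CPM (y axis, from 0) of 12 genes in each library (points), with the mean (long line) and SD (bar) of the 3 libraries of each group, for cells with IL-1β and SFRP5, with IL-1β and in control. Creb3l1, Creb3l2, Eif2ak3, Serpinh1, Fkbp10 and Sec23a are highest in control, Atf6, Hspa5, Hsp90b1, P4hb and Dnajb9 are higher with IL-1β, and Pdia3 lies between 814.6 and 850.8 CPM in all 9 libraries.

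The chaperones of the lumen split. Hspa5 (ENSMUSG00000026864) encodes BiP, the Hsp70 of the ER and the usual readout of ER stress. Its level was 1996, 2023 and 1934 CPM with IL-1β and SFRP5, 2405, 2431 and 2462 CPM with IL-1β, and 1599, 1603 and 1586 CPM in control. The 3 groups were apart, with IL-1β alone highest. Hspa5 was 1.52-fold higher with IL-1β than in control (log2 change 0.61 ± 0.03, adjusted p = 9.05e-16) and fell with SFRP5 added (−0.29 ± 0.03, adjusted p = 2.01e-08). Hsp90b1 (ENSMUSG00000020048), the gene of GRP94, the Hsp90 of the ER, was at 2054, 2120 and 2052 CPM with IL-1β and SFRP5, at 2154, 2187 and 2252 CPM with IL-1β, and at 1079, 1052 and 1074 CPM in control. Its rise of 1.04 ± 0.03 over control was the largest of the 37 genes (adjusted p = 2e-20). The small difference between IL-1β with SFRP5 and IL-1β alone (−0.08 ± 0.03, adjusted p = 0.0436) lost its call in 9 of 15 alternatives.

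Canx and Calr encode calnexin and calreticulin, the membrane-bound and the soluble chaperone that hold newly made glycoproteins until their sugars have been trimmed. Canx was at 1219, 1230 and 1231 CPM with IL-1β and SFRP5, at 1367, 1434 and 1439 CPM with IL-1β, and at 786.1, 783.7 and 775.5 CPM in control. That is a rise of 0.85 ± 0.03 with IL-1β (adjusted p = 2.81e-18) and a fall of −0.20 ± 0.03 with SFRP5 added (adjusted p = 1.65e-05). Calr, by contrast, stayed between 941.9 and 1074 CPM in all 9 libraries. Its fall of −0.09 ± 0.04 with IL-1β was called (adjusted p = 0.0313), but not in 9 of 15 alternatives, where its adjusted p reached 0.547.

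The co-chaperones of BiP also split. Dnajb9 encodes ERdj4, which brings BiP to misfolded proteins and to IRE1. It was at 70.36, 75.59 and 74.23 CPM with IL-1β and SFRP5, at 94.72, 92.28 and 91.71 CPM with IL-1β, and at 70.87, 65.6 and 65 CPM in control. Dnajb9 rose with IL-1β (0.47 ± 0.05, adjusted p = 2.8e-09), and its libraries with SFRP5 were lower than with IL-1β alone (−0.34 ± 0.05, adjusted p = 4.67e-06) and overlapped the control range. Against control the difference of 0.13 ± 0.05 (adjusted p = 0.0227) was −0.01 with upper-quartile factors. Dnajc3, the gene of P58IPK, a co-chaperone that also inhibits kinases of eIF2α, was at 95.31, 87.23 and 93.17 CPM with IL-1β and SFRP5, at 74.49, 82.47 and 83.12 CPM with IL-1β, and at 203.8, 192.5 and 201.2 CPM in control. It thus fell 2.49-fold with IL-1β (−1.31 ± 0.05, adjusted p = 2.73e-18) and rose by 0.20 ± 0.05 with SFRP5 added (adjusted p = 0.00362).

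Dnajb11, the gene of the co-chaperone ERdj3, Hyou1, whose product GRP170 exchanges the nucleotide of BiP, and Creld2, a gene induced by ER stress, fell with IL-1β by 0.69, 0.67 and 0.80 on the log2 scale. Hyou1 averaged 198.4 ± 2.77 CPM with IL-1β and SFRP5, 206.3 ± 8.23 CPM with IL-1β and 327.4 ± 1.71 CPM in control (SD, n = 3 each). None of these 3 was called for SFRP5 added to IL-1β. Manf, a secreted protein that the ER releases under stress, fell by −0.22 ± 0.05 with IL-1β (adjusted p = 0.000496) and by −0.23 ± 0.05 more with SFRP5 added (adjusted p = 0.00132). The span of Manf in the table overlaps Dcaf1 and Rbm15b, which held 43.9% and 43.6% as many counts as Manf.

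Sdf2l1, a partner of the ERdj3 and BiP complex, had the lowest mean CPM of the chaperones and co-chaperones in each group, before scaling by gene length. Per kilobase it was the lowest only in control, at 15.1, and with IL-1β it was at 16.3, against 15.6 for Dnajc3. Sdf2l1 was at 23.91, 20.69 and 20 CPM with IL-1β and SFRP5, at 21.93, 15.5 and 16.79 CPM with IL-1β, and at 16.22, 17.47 and 16.4 CPM in control. IL-1β library 1 lay above the rest of its group, and the difference from control was 0.11 ± 0.11 (adjusted p = 0.335). With IL-1β and SFRP5 Sdf2l1 was higher than in control (0.37 ± 0.10, adjusted p = 0.0022). Summed over the 11 chaperones and co-chaperones, levels were 6916 ± 93.3 CPM with IL-1β and SFRP5, 7664 ± 78 CPM with IL-1β and 5433 ± 33.5 CPM in control. Yet 6 of the 11 genes fell with IL-1β and 4 rose, or 54.5% and 36.4%, against 40.4% and 38.5% of all genes tested.

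The disulfide isomerases, which form and rearrange the disulfide bonds of secreted proteins, did not move together. P4hb (ENSMUSG00000025130) encodes the founding isomerase PDI, which is also the β subunit of the prolyl 4-hydroxylase of collagen. It was at 2987, 3017 and 2860 CPM with IL-1β and SFRP5, at 3101, 3147 and 2923 CPM with IL-1β, and at 1648, 1670 and 1687 CPM in control. The stimulated libraries all lay far above control and overlapped each other. P4hb rose by 0.87 ± 0.03 with IL-1β (adjusted p = 2.5e-18) and differed by −0.05 ± 0.03 with SFRP5 added (adjusted p = 0.276). Pdia4, an isomerase that works with BiP and GRP94, fell to 166.2 ± 3.47 CPM with IL-1β, against 390.6 ± 4.97 CPM in control (SD, n = 3 each; −1.23 ± 0.04, adjusted p = 8.53e-20). With SFRP5 added it was at 199.1 ± 6.42 CPM, a rise of 0.26 ± 0.04 over IL-1β alone (adjusted p = 1.35e-05).

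Pdia3, the isomerase that works with calnexin and calreticulin, was at 841.4, 835.9 and 826.4 CPM with IL-1β and SFRP5, at 819.7, 814.6 and 840.7 CPM with IL-1β, and at 850.6, 848.7 and 850.8 CPM in control. The libraries with IL-1β lay just below control, and the log2 difference was −0.04 ± 0.03 (adjusted p = 0.222). With upper-quartile factors Pdia3 was called lower with IL-1β (−0.19). Pdia6, which binds and dampens the sensor IRE1, fell slightly with IL-1β (−0.15 ± 0.04, adjusted p = 0.000958) and again with SFRP5 added (−0.11 ± 0.04, adjusted p = 0.0224), but its call for SFRP5 was lost in 3 of 15 alternatives.

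All 4 genes listed as collagen chaperones and prolyl isomerases fell with IL-1β, against 40.4% of all genes tested, whereas P4hb, which also serves collagen as given above, rose. Serpinh1 (ENSMUSG00000070436), which encodes HSP47, the chaperone that binds the collagen triple helix, was at 1045, 1086 and 992.3 CPM with IL-1β and SFRP5. It was at 727.5, 740.5 and 627.3 CPM with IL-1β and at 4035, 4086 and 4082 CPM in control. The 3 groups were far apart, and the fall of −2.54 ± 0.05 with IL-1β was the largest of the 37 genes (adjusted p = 6.12e-25). With SFRP5 added Serpinh1 was 1.49-fold higher than with IL-1β alone (0.58 ± 0.05, adjusted p = 1.65e-10) and still 3.91-fold lower than in control.

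Fkbp14 and Fkbp10 encode prolyl isomerases of the FKBP family, FKBP22 and FKBP65, and loss of either in people gives disorders of connective tissue or bone. Fkbp14 was at 34.91, 34.93 and 34.16 CPM with IL-1β and SFRP5, at 32.14, 29.91 and 30.51 CPM with IL-1β, and at 105.5, 107.5 and 102.6 CPM in control. Fkbp10 was at 324.5, 339.4 and 309.5 CPM with IL-1β and SFRP5, at 267.1, 281.1 and 245.4 CPM with IL-1β, and at 628.7, 631 and 622 CPM in control. For both genes the control libraries were the highest, the libraries with IL-1β alone the lowest, and no groups overlapped. The changes with IL-1β were −1.77 ± 0.05 for Fkbp14 (adjusted p = 6.19e-21) and −1.25 ± 0.04 for Fkbp10 (adjusted p = 9.42e-19). SFRP5 added to IL-1β gave a rise of 0.29 ± 0.04 for Fkbp10 (adjusted p = 1.14e-05) and of 0.17 ± 0.06 for Fkbp14 (adjusted p = 0.0231). The rise of Fkbp14 was lost in 7 of 15 alternatives, and its span overlaps Plekha8, which held 32.3% as many counts.

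Ppib, which encodes cyclophilin B, the prolyl isomerase that works with prolyl 3-hydroxylase on collagen, fell less, to 268.9 ± 14.3 CPM with IL-1β, against 365 ± 9.02 CPM in control (SD, n = 3 each; −0.44 ± 0.04, adjusted p = 4.23e-10). With SFRP5 added it was at 276.9 ± 4.48 CPM, a difference of 0.04 ± 0.04 from IL-1β alone (adjusted p = 0.483). The summed level of the 4 genes was 1677 ± 66.8 CPM with IL-1β and SFRP5, 1263 ± 93.2 CPM with IL-1β and 5165 ± 26.1 CPM in control. Serpinh1 made up most of each sum. Over all 37 genes the sums were 15220 ± 281, 15600 ± 224 and 17280 ± 22.8 CPM in these groups, and without Serpinh1 they were 14180 ± 234, 14900 ± 171 and 13220 ± 15.3 CPM, so that 1 gene set which group was highest.

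Levels of different genes can be compared only per length, and scaling by length leaves the change of each gene between groups as it was. In CPM per kilobase of the deposited gene length, Serpinh1 led the 37 genes in control at 1660, ahead of P4hb at 583, Hspa5 at 377 and Calr at 369. With IL-1β, P4hb led at 1070, followed by Hspa5 at 575 and Hsp90b1 at 545, and Serpinh1 was at 286. With IL-1β and SFRP5 the order was P4hb at 1030, Hsp90b1 at 515, Hspa5 at 469 and Serpinh1 at 426. The lowest levels were those of Eif2ak3 with IL-1β and SFRP5, at 3.97, and with IL-1β, at 3.26, and of Edem2 in control, at 7.18.

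Of the 5 genes of ER-associated degradation, which returns misfolded proteins to the cytosol for the proteasome, 4 fell with IL-1β and none rose. Among all genes tested 40.4% fell and 38.5% rose. Syvn1 encodes HRD1, the ubiquitin ligase of the pathway, and was at 35.16, 34.15 and 35.93 CPM with IL-1β and SFRP5, at 31.59, 35.3 and 32.79 CPM with IL-1β, and at 77.99, 76.21 and 83.23 CPM in control. Both stimulated groups lay well below control and overlapped each other. The change with IL-1β was −1.25 ± 0.06 (adjusted p = 1.04e-16), and SFRP5 added 0.08 ± 0.06 (adjusted p = 0.357). The span of Syvn1 overlaps Mrpl49, which held 39.4% as many counts and rose by 0.39 on the log2 scale.

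Sel1l, the partner that steadies HRD1, and Herpud1, a stress-induced scaffold of the same complex, fell by 0.59 and 0.65 with IL-1β, and Edem1, a lectin-like factor that picks out misfolded glycoproteins, by 0.72. With SFRP5 added, Sel1l rose by 0.17 ± 0.04 (adjusted p = 0.00179) and Edem1 by 0.16 ± 0.05 (adjusted p = 0.0117, but 0.0967 without IL-1β and SFRP5 library 3), whereas Herpud1 differed by 0.06 ± 0.05 (adjusted p = 0.367). Edem2, the mannosidase that starts this selection, was at 22.19, 21.21 and 20.95 CPM with IL-1β and SFRP5, at 24.67, 28.34 and 22.26 CPM with IL-1β, and at 23.89, 24.07 and 26.61 CPM in control. Its level with IL-1β spanned the whole control range (0.01 ± 0.08, adjusted p = 0.893). Its fall with SFRP5 added (−0.22 ± 0.08, adjusted p = 0.0477) was lost in 11 of 15 alternatives.

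At the translocon, Sec61b, a small subunit of the protein-conducting channel, averaged 37.61 ± 0.0483 CPM with IL-1β and SFRP5, 37.05 ± 1.9 CPM with IL-1β and 77.95 ± 0.134 CPM in control (SD, n = 3 each). It fell by −1.07 ± 0.05 with IL-1β (adjusted p = 4.21e-16) and differed by 0.02 ± 0.06 with SFRP5 added (adjusted p = 0.804). Ssr1, a subunit of the associated TRAP complex, was at 354.3, 366.9 and 361.1 CPM with IL-1β and SFRP5, at 383.7, 382.4 and 410.9 CPM with IL-1β, and at 411.8, 412 and 412.4 CPM in control. The libraries with IL-1β lay below control by a small margin (−0.07 ± 0.04, adjusted p = 0.0882), and Ssr1 was lower with SFRP5 added (−0.12 ± 0.04, adjusted p = 0.0159). That call was lost in 2 of 15 alternatives, and Ssr1 was called lower with IL-1β when IL-1β library 3 was left out or with upper-quartile factors (−0.22).

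The 4 genes of export from the ER fell with IL-1β, against 40.4% of all genes tested, and by different amounts. Sec23a (ENSMUSG00000020986), the inner-coat subunit of COPII that BBF2H7 is known to induce in mouse cartilage, was at 97.19, 89.9 and 92.16 CPM with IL-1β and SFRP5. It was at 73.52, 67.88 and 70.25 CPM with IL-1β and at 242.1, 256.7 and 248.5 CPM in control. The groups did not overlap. Sec23a fell 3.53-fold with IL-1β (−1.82 ± 0.05, adjusted p = 7.17e-22) and was 1.32-fold higher with SFRP5 added (0.40 ± 0.05, adjusted p = 3.39e-07).

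Sec31a, of the outer COPII coat, fell by −0.85 ± 0.04 with IL-1β and rose by 0.18 ± 0.04 with SFRP5 added (adjusted p = 3.46e-16 and 0.000976). Mia3, the gene of TANGO1, which loads collagen into COPII carriers, fell by −0.70 ± 0.04 (adjusted p = 8.01e-14) and was not called with SFRP5 added (−0.01 ± 0.04, adjusted p = 0.842). Sec24d, a cargo-binding COPII subunit, averaged 176.7 CPM with IL-1β and SFRP5, 199.4 CPM with IL-1β and 256.7 CPM in control. It thus fell with IL-1β (−0.36 ± 0.05, adjusted p = 1.16e-07) and was lower still with SFRP5 added (−0.17 ± 0.05, adjusted p = 0.006), a direction opposite to that of Sec23a and Sec31a. That call of Sec24d was lost without IL-1β library 2 (adjusted p up to 0.0664 over 15 alternatives). Kdelr3, a receptor that returns escaped chaperones to the ER, was at 85.99, 88.72 and 82.37 CPM with IL-1β and SFRP5, at 89.13, 94.4 and 84.82 CPM with IL-1β, and at 82.74, 86.55 and 84.55 CPM in control. All groups overlapped (0.08 ± 0.05 for IL-1β against control, adjusted p = 0.14). Its span overlaps Ddx17, which held 490% as many counts as Kdelr3, and the sources used here do not say whether counting used the strand, which also bears on the other overlaps named.

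Genes with an ERSE in the promoter did not share a direction. With IL-1β 3 of the 8 rose, Hsp90b1, Canx and Hspa5, and 5 fell, from Calr at −0.09 to Dnajc3 at −1.31. The call of Calr was lost in 9 of 15 alternatives. Among all genes tested 38.5% rose and 40.4% fell, so a split in direction is not particular to these genes. The 19 genes with no exact match to any of the motifs in the window ran from Serpinh1 at −2.54 to P4hb at 0.87, with 11 lower, 2 higher and 6 not called. An element that differs by a base or lies outside the window would be missed. Both ERSE-II genes fell, by 0.69 and 0.65, and of the UPRE genes Sec23a and Sec24d fell while Kdelr3 was not called. With SFRP5 added to IL-1β, 4 of the 8 ERSE genes fell, 1 rose and 3 were not called, between −0.29 for Hspa5 and 0.20 for Dnajc3. Of all genes tested 15.7% fell and 15.6% rose in that comparison.

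**Figure D4:**
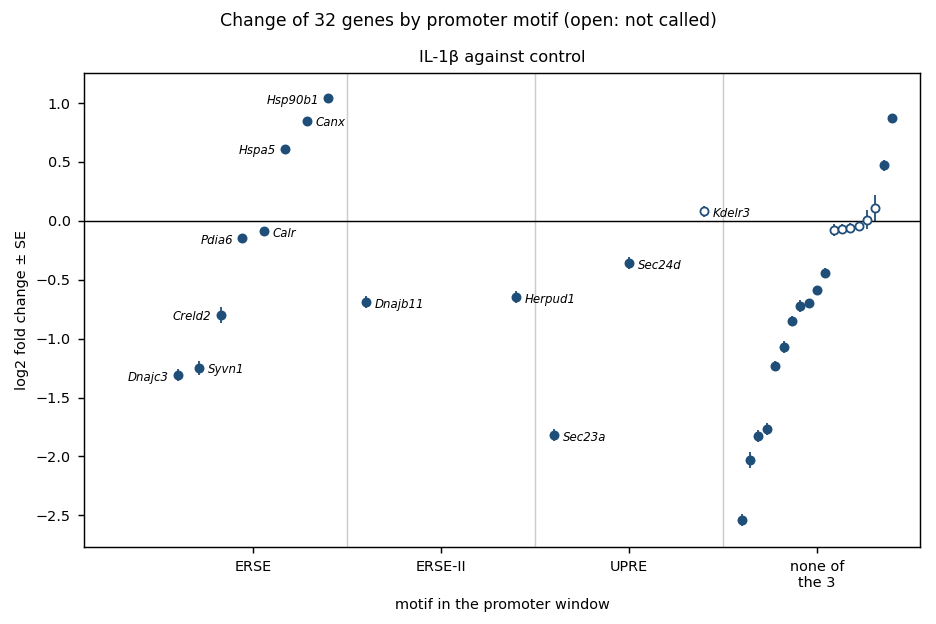
Log2 fold change ± SE of IL-1β against control (y axis) for the 32 genes with a RefSeq promoter window, by the motif found in it (x axis); points within a motif are spread sideways by rank, and open points were not called. The 8 ERSE genes run from −1.31 to 1.04, and the 19 genes without an exact match from −2.54 to 0.87.

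Most collagens, the cargo of this machinery, fell as well. Of 16 collagens listed as fibrillar or as their partners (Col10a1 is neither) 14 fell and 2 rose with IL-1β. Those are 87.5% and 12.5%, against 40.4% and 38.5% of all genes. The median of the 16 was −1.27, and their summed level was 43060 ± 989 CPM with IL-1β and SFRP5, 36020 ± 791 CPM with IL-1β and 123100 ± 1550 CPM in control. Col2a1 alone averaged 20770, 15410 and 74500 CPM in these groups, the largest single part of each sum. Col2a1, the main collagen of cartilage, changed by −2.27 ± 0.03 with IL-1β and by 0.43 ± 0.03 with SFRP5 added. Col11a1 and Col9a1, other collagens of the cartilage fibril, changed by −2.56 and −1.23 with IL-1β, and Col1a1, of bone and fibrous tissue, by −1.49. The largest fall was that of Col27a1 (−6.59 ± 0.08) and the largest rise that of Col5a3, at 1025 ± 11.8 CPM with IL-1β against 36.7 ± 3.61 CPM in control. With SFRP5 added 8 of the 16 collagens rose and 2 fell, or 50% and 12.5%, against 15.6% and 15.7% of all genes. Col3a1 (0.95 ± 0.03) and Col5a3 (−1.21 ± 0.04) led them.

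The 14 genes listed for collagen hydroxylation and glycosylation in the ER are not all genes of enzymes (Tmem38b, Crtap and P3h4 are not). Of these 14, 6 rose and 6 fell with IL-1β, with a median of −0.05. Each share, 42.9%, was near that of all genes, 38.5% higher and 40.4% lower. P4ha2, a catalytic subunit of the same prolyl 4-hydroxylase to which P4hb belongs, rose by 2.54 ± 0.04 to 1399 ± 66.4 CPM, against 240.8 ± 7.36 CPM in control, and P4ha3 fell by 2.44 on the log2 scale. With SFRP5 added 10 of the 14 rose and 1 fell, or 71.4% and 7.14%, against 15.6% and 15.7% of all genes. This list too was chosen with earlier results known, so these shares are not a test. P3h2, a prolyl 3-hydroxylase, rose by 1.06 ± 0.06 and Plod2, a lysyl hydroxylase, fell by 0.27.

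Other ER genes were split as well. Of 41 tested further chaperones and folding enzymes 11 rose and 25 fell with IL-1β (median −0.27). Those are 26.8% and 61%, against 38.5% and 40.4% of all genes. Ero1a, the oxidase that recharges PDI, rose by 3.10 ± 0.04 to 3014 ± 122 CPM, against 351.7 ± 6.9 CPM in control, and Fkbp7, another prolyl isomerase, fell by 2.13. Of 40 further genes of COPII, retrieval and the COPI coat 8 rose and 27 fell, or 20% and 67.5% (median −0.35). There Sec24b rose by 1.04 and Sec16b fell by 5.86, to only 1.106 ± 0.172 CPM with IL-1β against 64.6 ± 0.979 CPM in control. Further genes of ER-associated degradation (11 up and 10 down of 28, median −0.08) and of the translocon, signal peptidase and oligosaccharyl transferase (13 up and 14 down of 33, median −0.04) stood near the background. Ubxn8 and Sec61a2 rose by 1.38 and 2.21, and Erlin1 and Ostc fell by 1.42 and 1.69.

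With SFRP5 added to IL-1β, 15.6% of all genes tested rose and 15.7% fell. Of the 33 genes listed for the translocon, signal peptidase and oligosaccharyl transferase 14 fell and 4 rose, or 42.4% and 12.1%. Sec61a2 was at −0.51 and Tram2 at 0.40. Among the further degradation genes 9 of 28 fell, or 32.1%, and Erlin1 rose, and the largest fall was that of Nploc4 (−0.31). The further chaperones had 11 of 41 higher and 8 lower, or 26.8% and 19.5%, with Fkbp7 at 0.64 and Ero1a at −0.43. The COPII and COPI genes had 8 of 40 higher and 7 lower, or 20% and 17.5%, near the shares of all genes. Sec16b was at 0.67 ± 0.21 (1.768 CPM with SFRP5 added against 1.106 CPM with IL-1β alone) and Lman1, a cargo receptor, at −0.33.

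Of 20 genes listed for the PERK and ATF4 arm, which include other kinases of eIF2α, 9 rose and 7 fell with IL-1β, with a median of 0.07. These shares of 45% and 35% were near those of all genes, 38.5% and 40.4%. Atf4, the factor whose translation PERK raises, was at 892.8 ± 37 CPM with IL-1β and SFRP5, 1071 ± 35.6 CPM with IL-1β and 506 ± 6.41 CPM in control, a rise of 1.08 ± 0.04 with IL-1β (adjusted p = 3.51e-19). Ddit3, which encodes the stress factor CHOP, fell slightly to 149.5 ± 9.53 CPM with IL-1β, against 180.2 ± 5.92 CPM in control (−0.27 ± 0.05, adjusted p = 9.89e-06). Slc7a11, a cystine transporter, rose the most, by 5.68, and Eif2ak2, the related kinase PKR, fell the most, by 0.90. Atf4 and Ddit3 were named after their values were seen. With SFRP5 added 10 of the 20 fell and 3 rose, or 50% and 15%, against 15.7% and 15.6% of all genes. Slc7a11 fell by 2.19 ± 0.04 while Cebpb rose by 0.33 ± 0.07.

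A mixed list of further sensors, proteases and other stress genes, such as Traf2, Bax and Wfs1, had 14 tested genes. Of these 14, 9 rose and 4 fell with IL-1β (median 0.26), with Nfe2l2, which encodes NRF2, up by 3.24. Those are 64.3% and 28.6%, against 38.5% and 40.4% of all genes. The relatives of the sensors and the proteases split: Atf6b and Creb3 were at −0.41 and −0.51, and Creb3l4 and Mbtps2 at 2.26 and 0.37. The largest fall was that of Mbtps1, the protease that makes the first cut in ATF6 and in the OASIS family. It averaged 135.1 ± 3.58 CPM with IL-1β and SFRP5, 100.8 ± 0.221 CPM with IL-1β and 258.9 ± 2.17 CPM in control. That is a change of −1.36 ± 0.04 with IL-1β (adjusted p = 2.06e-20) and of 0.42 ± 0.04 with SFRP5 added (adjusted p = 1.14e-08). With SFRP5 added 2 of the 14 rose and 4 fell, or 14.3% and 28.6%, against 15.6% and 15.7% of all genes. The largest fall was that of Wfs1 (−0.50 ± 0.05).

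Against control, cells with IL-1β and SFRP5 kept most of these differences. Serpinh1 changed by −1.97 ± 0.05, Eif2ak3 by −1.74 ± 0.07, Fkbp14 by −1.60 ± 0.05, Creb3l2 by −1.51 ± 0.04 and Sec23a by −1.42 ± 0.05, and Hsp90b1 by 0.96 ± 0.03. The 7 that were higher were Hsp90b1, P4hb, Canx, Atf6, Sdf2l1, Hspa5 and Dnajb9. The 4 that were not called were Ern1, Calr, Pdia3 and Kdelr3, with log2 differences of −0.04 to 0.02. In the further lists the leading genes were Col5a3 at 3.60 and Col27a1 at −6.07 among the collagens, P4ha2 at 2.71 and P4ha3 at −1.42, Ero1a at 2.67 and Cnpy2 at −1.86, and Slc7a11 at 3.50 and Chac1 at −1.27. Ubxn8 at 1.18 and Erlin1 at −1.17, Sec61a2 at 1.70 and Ostc at −1.62, Sec24b at 0.84 and Sec16b at −5.19, and Nfe2l2 at 3.00 and Mbtps1 at −0.94 led the others.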

How the data were processed

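The deposited values are whole-number gene counts in 1 table, neither scaled nor filtered. Per the labels' protocols, a directional NEBNext Ultra II kit was used on TRIzol-extracted RNA, and fastp (trimming), STAR (alignment, build mm10) and RSEM (quantification) processed the paired reads. Versions, annotation, strand setting and rounding are not given in the sources used here. Per the file headers, columns carry a letter and a number that were matched to the sample titles, and a deposited gene length was used for levels per kilobase.

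Counts were analysed in R 4.3.3 with edgeR 4.0.16: filterByExpr by group, TMM factors, 1 quasi-likelihood fit over all 9 libraries with 1 mean per group, and Benjamini-Hochberg adjustment over 15502 genes, called at an adjusted p under 0.05. Levels are CPM after TMM, and SE comes from the change and its F statistic. The alternatives were RLE and upper-quartile factors, DESeq2 1.42.0, no low-count filter (only 1 count required), only the 6 libraries compared, the replicate number as a block, and leaving out each of the 9 libraries. Libraries of 1 group differed by more than counting error (chi-square per gene 2.18 to 4.54), so none was taken as a duplicate. Libraries held 15795985 to 20688963 counts, at which 3 counts equal 0.135 to 0.195 CPM.

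The 37 genes and the other lists were chosen with earlier results of these data known. Values in every library are given for the 6 genes that rose with IL-1β, those with the 8 largest falls with IL-1β or the 8 largest changes with SFRP5 added, and those not called with IL-1β, and from other lists the called genes with the largest rise and fall are named. The positions in the table were used only to find overlapping genes, and promoter positions are RefSeq's.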

Additional observations from a re-analysis of the deposited data

How the results depend on the processing

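The counts of the 37 genes that rose or fell stayed within 1.5 times their value under every alternative, except that the number lower with SFRP5 added to IL-1β, 10, ranged from 6 (without IL-1β library 2) to 9 when single libraries were left out. For IL-1β against control 29 of 37 genes kept their call and direction in all 15 alternatives, for SFRP5 added to IL-1β 25, and for IL-1β with SFRP5 against control 31. Upper-quartile factors shifted the median of all genes by −0.15 for IL-1β against control and by −0.13 for IL-1β with SFRP5 against control. Relative to that shift, directions that turned were small: with IL-1β Sdf2l1 was at −0.04, Edem2 at −0.13 and Kdelr3 at −0.07, and with IL-1β and SFRP5 against control Ern1 was at −0.13, Dnajb9 at −0.01 and Kdelr3 at −0.12.

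When single libraries were left out, values near 0 crossed it. For IL-1β against control the ranges were −0.02 to 0.23 for Sdf2l1, −0.06 to 0.12 for Edem2 and −0.10 to 0.02 for Xbp1. For SFRP5 added to IL-1β they were −0.02 to 0.07 for Creld2, −0.04 to 0.01 for Mia3 and −0.02 to 0.05 for Sec61b, and for IL-1β with SFRP5 against control −0.02 to 0.03 for Ern1. Libraries with the same number did not deviate together (r of −0.036 to 0.04). A small shared effect could go unseen here, and the labels do not say whether the numbers pair libraries. With the replicate number as a block, 24 genes fell and 6 rose with IL-1β, 9 fell and 13 rose with SFRP5 added, and 26 were lower and 7 higher with IL-1β and SFRP5 than in control, with 1 call lost and 1 gained. Depth did not limit the set, whose lowest library level was 15.5 CPM.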
